A study of Mus musculus with 8 samples.

Results

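The interleukin 1 (IL-1) family was followed in whole CT26 tumors across 4 treatment groups. The genes were chosen by name: all non-control array probes annotated to Il1a, Il1b, Il1rn, Il1r1, Il1r2, Il1rl1, Il33, Il18, Il18bp or Il18r1 were taken, which gave 19 probes for 10 of the 37309 gene names on the array. A probe was tested when some group had it well above background on each of its arrays, which 17 of these 19 probes met, as part of the 31912 tested on the array. Il1a had no tested probe, so 9 of the 10 genes could be compared.

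CT26 is a colon carcinoma line of BALB/c mice, and 500000 cells were implanted under the skin of female BALB/c mice (6 to 10 weeks old according to the methods). Treatment lasted 2 weeks and consisted of vehicle, TP-16 (named BY001 in the labels, an antagonist of the prostaglandin E2 receptor EP4, at 75 mg/kg by mouth every day), an anti-PD-1 antibody (50 μg intraperitoneally, 2 doses a week), or both agents at these doses. No group carried a genetic change, and every tumor grew from the same implanted line in immunocompetent hosts. Each group had 2 arrays, each hybridised with RNA from whole tumor, and whether an array stood for 1 tumor or a pool was not given in the sources used here, so that the p-values below measure only the spread between these arrays.

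Levels are log2 intensities relative to the 75th percentile of the same array, which lay between 371.1 and 733.6 intensity units, and between 51.4% and 59.7% of probes were well above background per array. All 8 arrays shared 1 slide and 1 scan. Vehicle and TP-16 lay in row 1 of the slide and both antibody groups in row 2, while the TP-16 and combination arrays occupied columns 3 and 4, so that slide position and treatment cannot be told apart. All 5 markers of CT26 carcinoma cells were above background on all 8 arrays, as were 15 of 15 macrophage and monocyte markers, 14 of 14 fibroblast markers and 18 of 19 T and NK cell markers. Because the tissue is a mixture, a change in the number of cells of a type and a change in RNA per cell cannot be told apart.

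The IL-1 family consists of cytokines that signal through receptors with an intracellular TIR domain and the adaptor MyD88. IL-1α and IL-1β act through IL-1R1, IL-33 acts through the membrane form of ST2 (encoded by Il1rl1), and IL-18 acts through a receptor whose ligand-binding chain is encoded by Il18r1. Each branch has its own brake: the receptor antagonist encoded by Il1rn and the decoy receptor encoded by Il1r2 for IL-1, a soluble splice form of ST2 for IL-33, and the secreted binding protein encoded by Il18bp for IL-18. IL-18 with its receptor is known for inducing interferon-γ in T and NK cells, and interferon-γ in turn is a known inducer of Il18bp.

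Probes of the genes described below are shown here with the strand and position given in the scanner files (build mm9), because several of them separate transcript forms or lie next to another member. For Il1b, Il18bp and Il1rn the probe shown is the second, less intense one, and whether these genes were called was decided on the most intense probe. The probes of Il1b and Il18bp, which have a reading frame without a stop codon over all 60 bases, are printed whole, the Il1rn probe is printed up to its stop codon (in capitals), and of the remaining probes, which may lie in untranslated sequence, the opening 30 of 60 bases are given.
Il1b, chr2:129190880-129190939, minus strand: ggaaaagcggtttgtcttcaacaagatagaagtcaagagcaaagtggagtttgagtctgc
Il18bp, chr7:109164573-109164632, minus strand: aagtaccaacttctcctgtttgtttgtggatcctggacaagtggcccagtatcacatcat
Il1rn, chr2:24205094-24205153, plus strand: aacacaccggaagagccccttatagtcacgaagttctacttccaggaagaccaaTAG
Il18r1, chr1:40557541-40557600, plus strand: tgtcacaacagctgtgtgtgaaaacctagc
Il1rl1 soluble form (NM_010743), chr1:40504769-40504828, plus strand: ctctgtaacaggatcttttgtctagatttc
Il1rl1 membrane form (NM_001025602), chr1:40522187-40522246, plus strand: gccattgactccttgtgtgttttcttcatg

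In the combination group, 3 of the 9 tested genes rose against vehicle: Il18bp, Il18r1 and Il1rn, the binding protein of IL-18, the ligand-binding chain of its receptor and the antagonist of the IL-1 receptor. A gene was called when its most intense probe changed at least 2-fold and its limma p, adjusted by Benjamini-Hochberg over every tested probe, did not exceed 0.05. In the same comparison 12.5% of all tested probes were called, 5.08% higher and 7.47% lower. No family member fell. Under TP-16 alone and under anti-PD-1 alone, 0 of 9 genes were called, and the shares of all tested probes called were 0.0533% and 0.0721%. These shares rest on both vehicle arrays, since the 17 probes called under TP-16 became 800 when vehicle replicate 1 was left out and 355 when replicate 2 was, and the 23 called under anti-PD-1 became 165 and 293. With the unadjusted limma p (at most 0.05, with the same fold) 2 of 9 genes, Il18bp and Il18r1, were higher under each single agent, where 1.57% of all tested probes were higher under TP-16 (6.18% changed in either direction, 4.61% lower) and 1.67% under anti-PD-1 (3.83% in either direction, 2.16% lower). By this rule the same 3 genes passed in the combination, where 15.3% of all tested probes did, whereas the methods' t-test at the same p and fold passed 0 of 9 genes in each of these 3 comparisons. The median log2 change over the 9 genes was 0.23 under TP-16, 0.50 under the antibody and 0.52 under both agents, beside medians of -0.12, -0.10 and -0.20 over all tested probes.

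**Figure D1:**
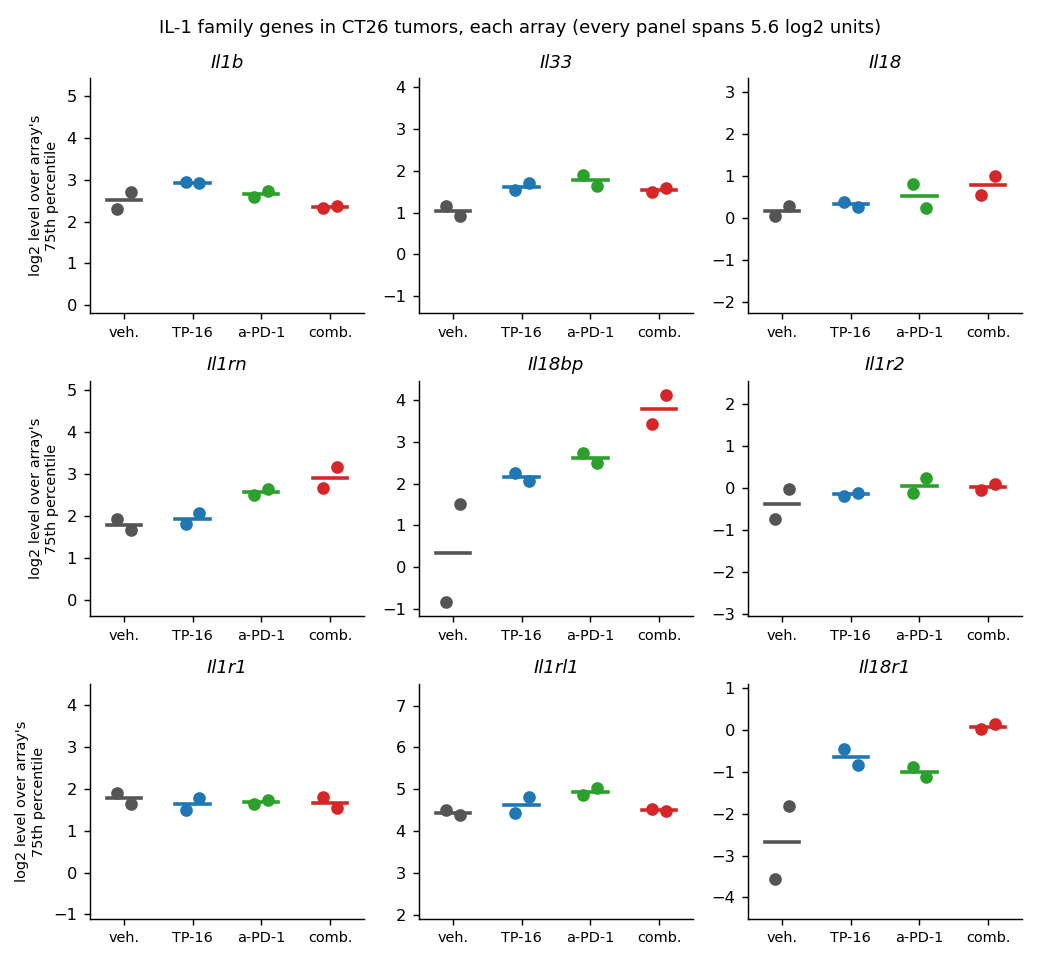
Log2 level over the array's 75th percentile (vertical axis) of the 9 tested genes on each array, by treatment group (veh., vehicle; a-PD-1, anti-PD-1; comb., combination). Points are arrays, bars are means of 2 arrays, and each panel has its own centre but the same span. Il18bp and Il18r1 were lowest on both vehicle arrays, while Il1r1 was level across the groups.

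Il18bp showed the largest change of the 9 genes in the combination and under anti-PD-1, and Il18r1 under TP-16. Its more intense probe read -0.83 and 1.50 in vehicle, 2.25 and 2.05 in TP-16, 2.72 and 2.49 in anti-PD-1, and 3.43 and 4.10 in the combination. The groups did not overlap, but the vehicle arrays lay far apart, and the higher of them was close to the TP-16 arrays. Against vehicle the fold was 10.8 in the combination (log2 change 3.43, SE 0.72, limma adjusted p = 0.0203). The single agents gave log2 changes of 1.82 for TP-16 (SE 0.72, adjusted p = 0.186) and 2.27 for anti-PD-1 (SE 0.72, adjusted p = 0.296), neither of which was called. The Il18bp probe printed above followed the other probe closely (Pearson r = 0.998 over the 8 arrays, as a description) and gave a log2 change of 3.60 for the combination (SE 0.69, adjusted p = 0.0166).

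Il18r1 read -3.55 and -1.82 in vehicle, -0.45 and -0.83 in TP-16, -0.88 and -1.13 in anti-PD-1, and 0.03 and 0.13 in the combination. Both combination arrays were the highest and both vehicle arrays the lowest, and the single agents lay between them without overlapping each other. The combination exceeded vehicle 6.79-fold (log2 change 2.76, SE 0.53, adjusted p = 0.0167). The log2 changes of TP-16 (2.05, SE 0.53, adjusted p = 0.103) and anti-PD-1 (1.68, SE 0.53, adjusted p = 0.296) were not called. A second Il18r1 probe, matched to another transcript of the gene, was not well above background on any array and was not tested.

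The cytokine itself changed less. Il18 read 0.05 and 0.28 in vehicle, 0.38 and 0.26 in TP-16, 0.81 and 0.23 in anti-PD-1, and 0.55 and 1.00 in the combination. Apart from the combination arrays, which lay above both vehicle and both TP-16 arrays, the groups overlapped. The log2 change for the combination was 0.61 (95% confidence interval 0.00 to 1.21, adjusted p = 0.106) and was not called. Within each array, the log2 difference between the Il18bp and the Il18 probe was -0.88 and 1.22 in vehicle and 2.88 and 3.10 in the combination, and the 4 single-agent arrays lay between 1.78 and 2.26. This difference, in which a constant factor per array cancels, was thus largest in the combination. It is given without a test because the pair was chosen with the values known.

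The size of the Il18bp and Il18r1 changes depended on 1 vehicle array, and their calls on the combination arrays. Without vehicle replicate 1, in which both genes were lowest, the log2 change of the combination was 2.27 for Il18bp (adjusted p = 0.0188) and 1.90 for Il18r1 (adjusted p = 0.0165). That setting gave changes under TP-16 of 0.65 for Il18bp and 1.18 for Il18r1, and under anti-PD-1 of 1.11 and 0.81. Without vehicle replicate 2, the combination changes were 4.59 for Il18bp and 3.63 for Il18r1. The single-agent changes were then 2.98 and 2.91 under TP-16, and 3.43 and 2.55 under anti-PD-1. Without combination replicate 1, the adjusted p was 0.0558 for Il18bp and 0.0589 for Il18r1, and without combination replicate 2 it was 0.121 and 0.0991, a setting in which no probe of the whole array was called.

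**Figure D2:**
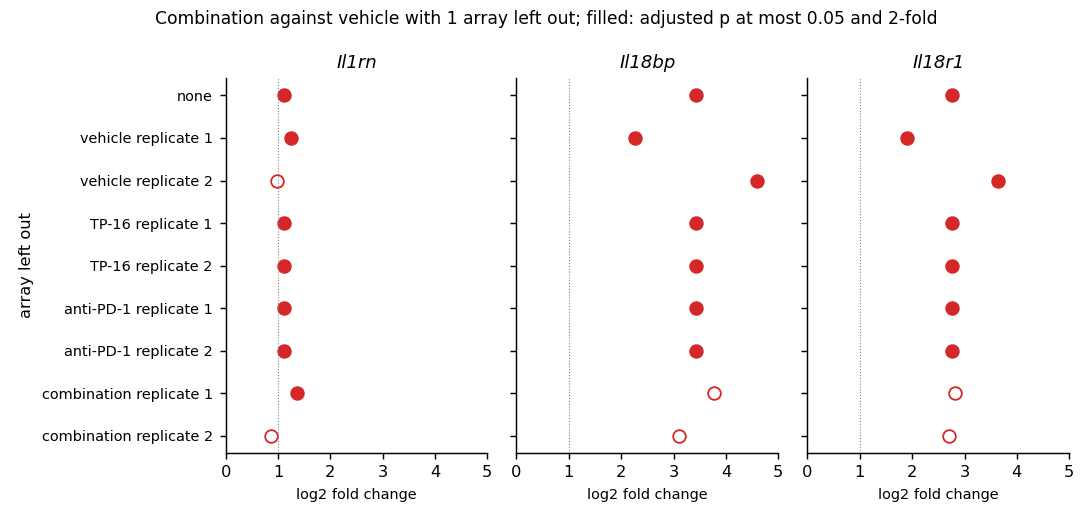
Log2 fold change of the combination against vehicle (horizontal axis) for the 3 called genes with no array or 1 array left out (vertical axis). Filled circles reached an adjusted p of at most 0.05 with at least a 2-fold change, and the dotted line marks 2-fold. The change stayed above 0 in every case, and no circle is filled without combination replicate 2.

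Markers of lymphocytes and interferon-γ response genes moved with Il18bp and Il18r1. Of 19 tested T and NK cell markers, 10 rose in the combination and 0 fell (median log2 change 2.64, beside medians of 1.80 under TP-16 and 1.69 under anti-PD-1), and their summed intensity, in multiples of the array's 75th percentile, was 20.7 and 80.4 in vehicle, 85.5 and 96.6 in TP-16, 93.7 and 124.8 in anti-PD-1, and 124.6 and 171.6 in the combination. The lower vehicle value belonged to vehicle replicate 1. Gzmb, a granule protease of killer cells and the second most intense of these markers, rose by 1.64 (adjusted p = 0.046), while the change of Gzma was 1.08 (adjusted p = 0.249). Of 20 interferon-γ induced genes, 15 rose and 0 fell (median 2.54), with summed intensities of 304.5 and 540.0 in vehicle against 924.3 and 989.5 in the combination. Of this list, Psmb9, an immunoproteasome subunit, changed by 1.53 (adjusted p = 0.0965) and Cxcl11, a chemokine, by -0.73 (adjusted p = 0.0395, under 2-fold). These counts are to be read against the 5.08% of all tested probes that rose in the combination and the 7.47% that fell. The median change over all tested probes was -0.20. The part of lymphocytes and of the interferon-γ response in the changes of Il18bp and Il18r1 was not tested.

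On the IL-1 side, the antagonist Il1rn rose in the combination, and neither Il1b nor the receptors were called. The more intense probe of Il1rn read 1.93 and 1.66 in vehicle, 1.82 and 2.06 in TP-16, 2.49 and 2.63 in anti-PD-1, and 2.66 and 3.17 in the combination. Both antibody groups lay above vehicle and TP-16, which overlapped. The combination exceeded vehicle 2.17-fold (log2 change 1.12, SE 0.21, adjusted p = 0.0158), anti-PD-1 gave a log2 change of 0.77 (SE 0.21, adjusted p = 0.272) and TP-16 one of 0.14 (SE 0.21, adjusted p = 0.696). Its second probe, which ends just behind the stop codon, read -2.60 and -2.58 in vehicle and -2.06 and -1.66 in the combination, a log2 change of 0.73 (SE 0.22, adjusted p = 0.0519) that was not called. The Il1rn call was also lost without vehicle replicate 2 (log2 change 0.98, adjusted p = 0.0529) and without combination replicate 2 (0.86, adjusted p = 0.0806).

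Il1b, which encodes the main IL-1 of myeloid cells, read 2.29 and 2.71 in vehicle, 2.94 and 2.92 in TP-16, 2.58 and 2.72 in anti-PD-1, and 2.33 and 2.36 in the combination. The TP-16 arrays were the highest of all 8, and the combination arrays lay within the range of vehicle. The log2 change for TP-16 was 0.42 (SE 0.16, adjusted p = 0.173) and for the combination -0.16 (95% confidence interval -0.55 to 0.24, adjusted p = 0.477). The Il1b probe printed above was likewise highest in TP-16, at 1.49 and 1.41 against 0.59 and 0.97 in vehicle (log2 change 0.67, SE 0.16, adjusted p = 0.0937). Another Il1b probe, annotated to an Ensembl transcript only, ran against both others (r = -0.48 and -0.50 over the 8 arrays) and was not called in any comparison. Il1a was not well above background on any of the 8 arrays.

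Within the array, the Il1rn probe minus the Il1b probe was -0.36 and -1.05 in vehicle, -1.12 and -0.85 in TP-16, -0.09 and -0.09 in anti-PD-1, and 0.33 and 0.81 in the combination. The combination arrays were above the other 6 with all of the 3 scalings tried. A constant factor per array cancels in such a difference, so that the scalings could move it little. The Il1rn and Il1b difference too is a description without a test.

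The IL-1 receptors were not called in any comparison. Il1r1, the signalling receptor, lay between 1.48 and 1.91 on all 8 arrays, with a log2 change of -0.11 in the combination (95% confidence interval -0.53 to 0.32), and its groups overlapped. Il1r2, the decoy, read -0.74 and -0.03 in vehicle and -0.04 and 0.10 in the combination, a log2 change of 0.41 (95% confidence interval -0.21 to 1.04, adjusted p = 0.25). The second Il1r2 probe gave 0.50 (SE 0.22, adjusted p = 0.131).

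**Figure D3:**
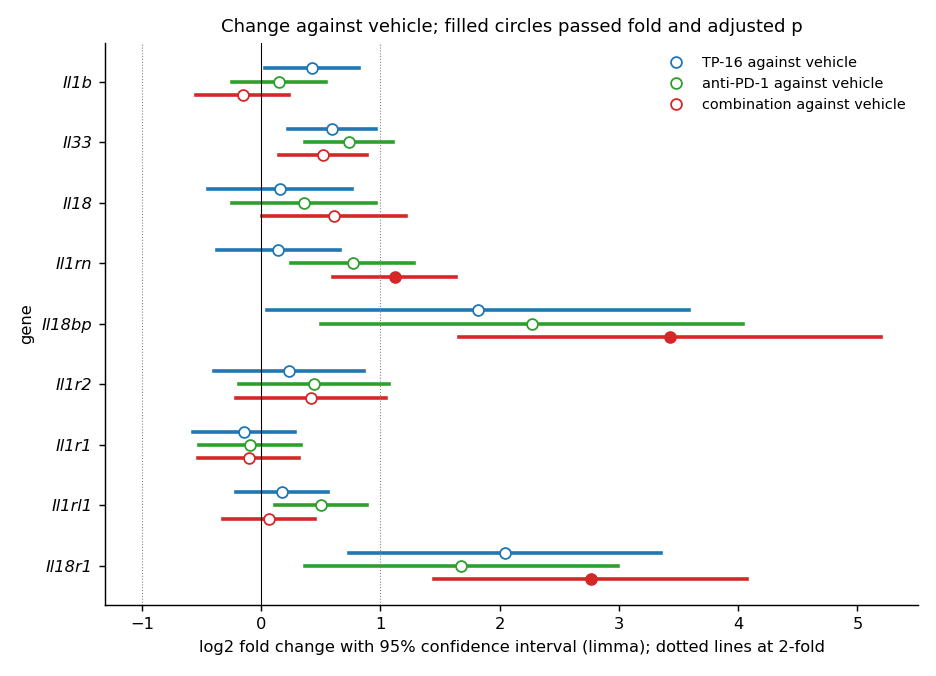
Log2 fold change against vehicle (horizontal axis) with the 95% confidence interval of limma for the 9 tested genes in 3 comparisons. Filled circles passed a 2-fold change with an adjusted p of at most 0.05, which holds for Il1rn, Il18bp and Il18r1 in the combination, and open circles did not.

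In the IL-33 branch no gene was called, and the probes of a gene did not all follow one another. The more intense probe of Il33, an alarmin of stromal and epithelial cells, read 1.15 and 0.91 in vehicle, 1.55 and 1.69 in TP-16, 1.90 and 1.63 in anti-PD-1, and 1.50 and 1.60 in the combination. All 6 treated arrays lay above both vehicle arrays, and TP-16 overlapped both other treated groups. The log2 changes were 0.59 for TP-16 (SE 0.15, adjusted p = 0.101), 0.74 for anti-PD-1 (SE 0.15, adjusted p = 0.234) and 0.52 for the combination (SE 0.15, adjusted p = 0.046), which did not reach the fold required. The second Il33 probe read between -3.08 and -2.56 on all arrays and gave -0.25 in the combination (SE 0.22, adjusted p = 0.406), so that the 2 probes disagreed in direction (r = 0.02 between them).

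Il1rl1 was measured by probes for separate transcript ends. The probe of the soluble form read 4.49 and 4.39 in vehicle, 4.42 and 4.81 in TP-16, 4.86 and 5.03 in anti-PD-1, and 4.52 and 4.49 in the combination, where the log2 change was 0.06 (95% confidence interval -0.32 to 0.45, adjusted p = 0.773). The probe of the membrane form read 2.42 and 2.22 in vehicle, 2.62 and 2.86 in TP-16, 2.93 and 3.06 in anti-PD-1, and 3.10 and 2.98 in the combination, with all 6 treated arrays above vehicle. Its log2 change in the combination was 0.72 (SE 0.14, adjusted p = 0.017), which was under 2-fold and hence not called. For anti-PD-1 the changes of the soluble and membrane probes were 0.50 (adjusted p = 0.293) and 0.68 (adjusted p = 0.235).

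The within-array difference between the soluble and the membrane probe was 2.08 and 2.17 in vehicle, 1.81 and 1.95 in TP-16, 1.93 and 1.97 in anti-PD-1, and 1.41 and 1.51 in the combination. Both combination arrays were below the other 6, and this held after quantile normalization (at most 1.59 in the combination, at least 1.84 elsewhere) and after normexp background correction (at most 1.55 and at least 1.84). Another Il1rl1 probe, which also lies in the membrane form but was above background on only 7 arrays, gave differences of 7.34 and 7.60 in the combination, which lay on either side of vehicle replicate 1 at 7.44. Vehicle replicate 2 was the array without signal above background and is given no difference.

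The membrane-form probe lies at the far end of the gene and close to another member. In the RefSeq annotation (build GRCm38.p6) its 60 bases fell at chr1:40465342-40465401, shortly before the annotated end of Il1rl1 at 40465418 and 151 bases ahead of an annotated Il18r1 start at 40465552 on the same strand. Over the 8 arrays its level correlated with that of Il18r1 at r = 0.69, against 0.08 for the soluble-form probe and 0.11 for the remaining Il1rl1 probe, given as a description of 8 arrays that share the treatments. Whether transcripts of Il18r1 add to this probe was not tested.

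**Figure D4:**
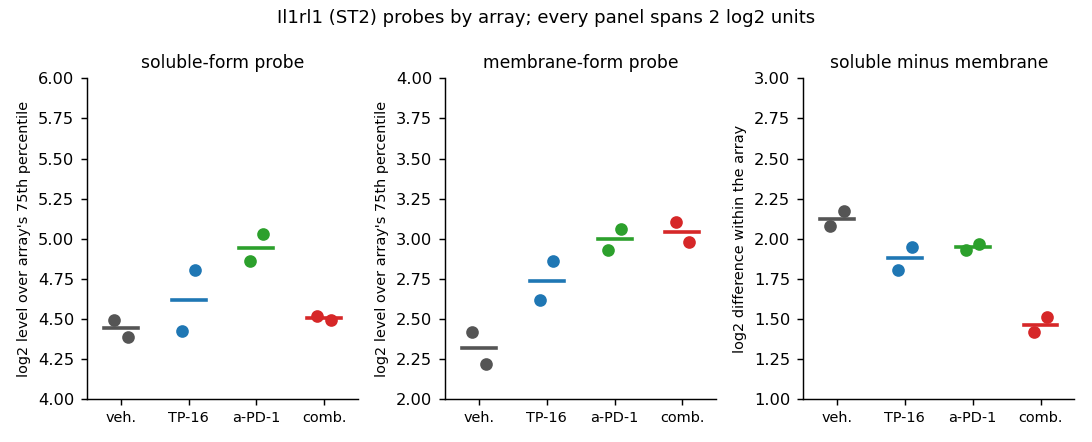
Levels of the soluble-form and membrane-form Il1rl1 probes (log2 over the array's 75th percentile) and their difference within the array, by group (veh., vehicle; a-PD-1, anti-PD-1; comb., combination). Points are arrays and bars are means of 2 arrays. The soluble probe lay near its vehicle level in the combination while the membrane probe lay above it, and the difference was lowest on the 2 combination arrays.

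Il1rl1 is carried by mast cells, regulatory T cells and type 2 innate lymphoid cells, and markers of these cells and of eosinophils moved as well. Of 18 tested markers 10 rose and 1 fell in the combination (median log2 change 1.41), with summed intensities of 17.0 and 19.0 in vehicle, 18.5 and 22.3 in TP-16, 32.2 and 38.4 in anti-PD-1, and 40.6 and 50.7 in the combination. Both most intense genes of the list, the mast cell proteases Cma1 (log2 change 1.38, adjusted p = 0.0215) and Cpa3 (1.91, adjusted p = 0.0102), rose, while Epx, the eosinophil peroxidase, was above background on no array. Of 16 tested neutrophil markers 3 fell and 0 rose (median -0.33, beside -0.20 over all tested probes). Among those that fell was S100a9, an alarmin of neutrophils, with -1.20 (adjusted p = 0.0195). Csf3r, the receptor of their growth factor G-CSF and the most intense of the list, gave -0.56 (adjusted p = 0.234). The mean log2 level of the neutrophil list was -0.82 and -0.63 in the combination, between the vehicle arrays at -0.99 and -0.15. Of 15 macrophage and monocyte markers 7 rose and 0 fell (median 0.94), including Ly6c2 of inflammatory monocytes with 2.11 (adjusted p = 0.0313), while C1qc, a complement subunit of macrophages, gave 0.72 (adjusted p = 0.088). Of 12 dendritic cell markers 7 rose. Only 8 of these 12, and 12 of the 21 markers of the list with mast cells on the array, were above background on all arrays. For neutrophils it was 14 of the 17 markers on the array. The other markers of these lists may have been tested only through the groups where they were high. The summed intensity of the dendritic cell markers, which the most intense genes dominate, was 70.1 and 52.3 in vehicle and 50.8 and 42.9 in the combination. Among the other lists, 5 of 14 fibroblast, 1 of 12 endothelial, 0 of 14 muscle and 0 of 6 epidermal markers rose. The counts of this paragraph are to be read against the 5.08% of all tested probes that rose and the 7.47% that fell. Summed epidermal intensities were 32.5 in TP-16 replicate 2 and 34.4 in anti-PD-1 replicate 2, and between 8.4 and 10.0 elsewhere. Those of muscle were 29.3 in vehicle replicate 1 and between 44.5 and 105.0 elsewhere. Of 5 CT26 markers 1 fell, Krt18 of simple epithelia (-1.39, adjusted p = 0.0196), and no other was called, among them Myc with -0.30 (adjusted p = 0.234), Krt8 with -2.68 (adjusted p = 0.0525) and Cdkn2a with 1.29 (adjusted p = 0.0758). Of the red blood cell genes 7 of 7 fell (median -2.28), and their summed intensity was 984.6 and 626.5 in vehicle and between 141.7 and 312.6 in the treated arrays. The share of these cells in the changes of Il1rn, Il33 and Il1rl1 was not tested.

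Beyond the 10 genes, 4 lists of related genes were read the same way, of which none held a called gene under a single agent. Among other ligands and receptors of the family, 11 were on the array and 4 were tested, of which 0 were called. These were Il18rap, the signalling chain that pairs with Il18r1 (log2 change in the combination 0.15, adjusted p = 0.651), Il1rap, the shared accessory chain (-0.72, adjusted p = 0.0177, under 2-fold), Sigirr, an inhibitory receptor (-0.71, adjusted p = 0.0614) and Il1rl2, the IL-36 receptor (-0.56, adjusted p = 0.0829). The 95% confidence interval of Il18rap, -0.42 to 0.72, lay below that of Il18r1, 1.45 to 4.07, in the same comparison. This pair was chosen with the values known, and the difference between its genes was not tested.

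Of 21 signalling genes below the receptors 3 rose and 0 fell in the combination (median 0.03): Irak3, which encodes the inhibitory kinase IRAK-M (log2 change 1.60, adjusted p = 0.0124), Map3k8, which encodes the kinase TPL2 (1.60, adjusted p = 0.0149), and Rel, an NF-κB subunit (1.06, adjusted p = 0.0107). Of 21 tested inflammasome and processing genes 4 rose and 0 fell (median 0.58). They included Mefv, which encodes pyrin (2.00, adjusted p = 0.0299), and Mcpt4, a mast cell chymase (1.41, adjusted p = 0.0132). The others were Nlrc4, an inflammasome component (1.40, adjusted p = 0.0177), and Panx1, a membrane channel (1.28, adjusted p = 0.0188). Naip1, a sensor that acts with Nlrc4, was well above background on only 2 of 8 arrays, and nothing is read from its test. Casp1, the protease that matures IL-1β and IL-18, changed by 0.67 (adjusted p = 0.0836) and was not called.

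Early genes that IL-1 can induce moved both ways: of 22 tested, 4 rose and 3 fell (median 0.11). Those that rose were Icam1, an adhesion molecule (1.96, adjusted p = 0.0158), Tnfaip3, an inhibitor of NF-κB (1.17, adjusted p = 0.0102), Mmp3, a matrix protease (1.13, adjusted p = 0.0122), and Bcl3, an NF-κB cofactor (1.07, adjusted p = 0.0149). The cytokines Il6 (-1.16, adjusted p = 0.0175) and Lif (-1.15, adjusted p = 0.0341) and the neutrophil chemokine Cxcl1 (-1.07, adjusted p = 0.0449) fell. These shares are to be read against the 5.08% of all tested probes that rose and the 7.47% that fell in this comparison. Bcl3 and Cxcl1 fell outside the naming rule and were added to complete the count.

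**Figure D5:**
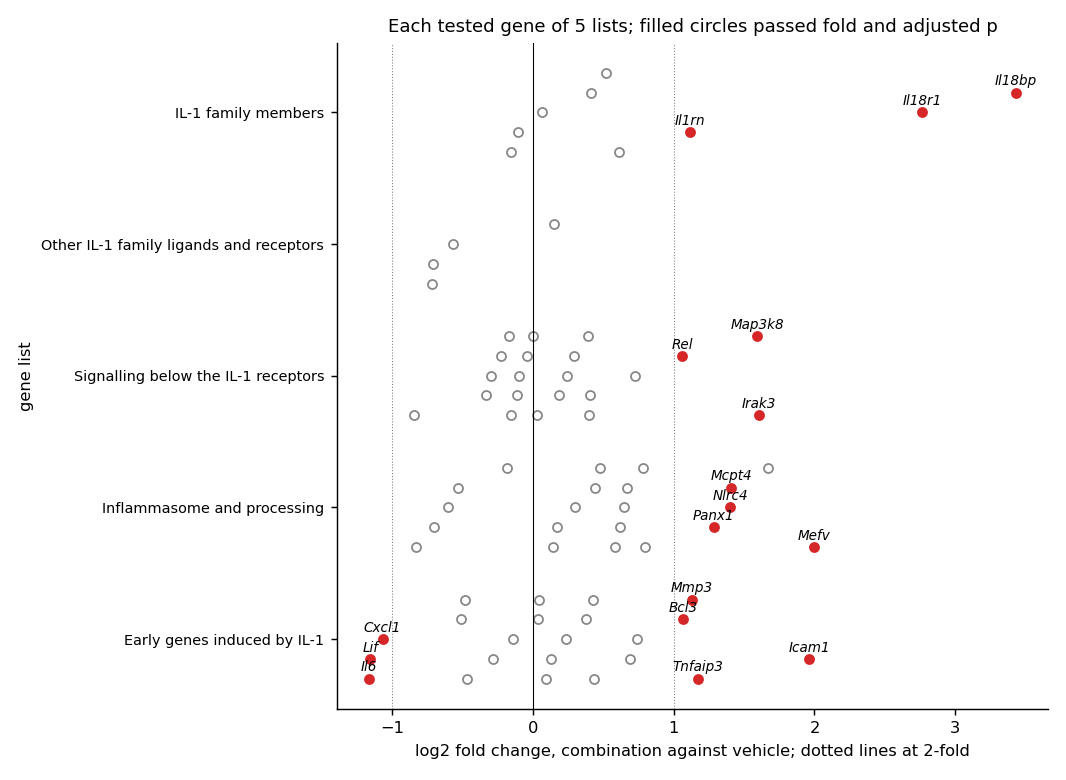
Log2 fold change of the combination against vehicle (horizontal axis) for every tested gene of the IL-1 family and of 4 related lists (rows, with points spread vertically for legibility). Filled circles are named and passed a 2-fold change with an adjusted p of at most 0.05, and open circles did not. The largest changes belong to Il18bp and Il18r1, and the early genes lie on both sides of 0.

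The direct comparisons of the combination with each single agent called none of the 9 genes, where 0% of all tested probes were called against TP-16 and 0.0157% against anti-PD-1. By the unadjusted rule 0 of 9 genes passed in either comparison by their most intense probe (the Il18bp probe printed above did against TP-16, with 1.71 and an adjusted p of 0.223), beside 4.34% and 4.27% of all tested probes. For Il18bp the combination exceeded TP-16 by 1.62 (SE 0.72, adjusted p = 0.253) and anti-PD-1 by 1.16 (SE 0.72, adjusted p = 0.348) on the log2 scale, and for Il18r1 by 0.72 (adjusted p = 0.471) and 1.08 (adjusted p = 0.256). Il1rn exceeded TP-16 by 0.98 (SE 0.21, adjusted p = 0.131) and Il1b was lower than under TP-16, by -0.58 (SE 0.16, adjusted p = 0.144).

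The change under both agents was also set against the sum of the single changes. No gene departed from that sum by the adjusted rule, by which 0% of all tested probes were called, nor by the unadjusted rule, by which 3.2% were. The difference was furthest below 0 for Il18r1, at -0.96 with an SE of 0.75 (adjusted p = 0.852), and it was also negative for Il33 (-0.81, SE 0.21, adjusted p = 0.53), Il1b (-0.73, SE 0.23, adjusted p = 0.58) and the soluble-form probe of Il1rl1 (-0.61, SE 0.22, adjusted p = 0.639), none of which reached 2-fold. Il1r2 gave -0.26, and Il1rn, Il1r1 and Il18 gave 0.21, 0.14 and 0.10. For Il18bp the difference was -0.65 with an SE of 1.02, a precision that could not separate additive from non-additive changes of that size.

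The genes whose level over the 8 arrays most resembled that of a member are given as a description. For Il18bp they were Ccpg1, Irgm1 (an interferon-inducible GTPase) and Trex1 (a DNA exonuclease), at Pearson r = 0.997, 0.996 and 0.995. For Il18r1 they were the MHC class II genes H2-Aa and H2-Ea-ps and the lymphocyte receptor Slamf6, each at r = 0.995. Il1rn went with Lamp2, a lysosomal membrane protein (r = 0.988), Cd300lb, a myeloid receptor (0.970), and Pim1, a kinase (0.968). Il33 went with P4ha2, a collagen prolyl hydroxylase (r = 0.975), and Il1b with Apbb1 (r = 0.984). The closest were Lman1 for Il1r1 (r = 0.979), Rbpjl for Il1r2 (0.965) and Trim65 for Il18 (0.996), and for Il1rl1 a transcript without a gene symbol (0.963). These correlations were the highest among 31912 probes over 8 arrays in 4 groups, and nothing about a shared function follows from them.

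Since Il18bp, Il18r1 and Il1rn rose together, the 250 bases ahead of each annotated start in RefSeq (GRCm38.p6) were searched on both strands for 2 motifs: GAAA repeated after any pair of bases, known to bind interferon regulatory factors, and GGG followed after any pair of bases by TTTCC, known to bind NF-κB. They occurred in 2.98% and 1.41% of the 32851 windows of this length. Of the 17 windows of the 10 genes, 0 held the repeat of GAAA and 1 the NF-κB motif. It was 1 of the 3 Il1rn windows, with the motif 51 bases ahead of the start at 24345371, while the windows of Il18bp and Il18r1 held neither. The match is shown with 9 bases on either side and the motif in capitals, on the plus strand.
Il1rn, chr2:24345311-24345338: gaaatatgaGGGTTTTTCCgcttctgac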

How the data were processed

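Total RNA of whole tumors was hybridised to 1-colour Agilent mouse arrays, 1 per sample and 2 per group (8 arrays). The deposited scanner files, written with Agilent Feature Extraction 10.7.1.1 per the labels, hold spot intensities that were background-subtracted within the array but not scaled between arrays. A second deposited file holds the log2 values that the authors made with GeneSpring (per the methods). Its column medians were all 5.17, its direction and scale followed the scanner values (r from 0.995 to 1.000 over the arrays, rounded), and the kind of normalization was not stated. For the 10 genes its values nearly equalled those after quantile normalization. The more intense Il18bp probe read 8.085 with both in vehicle replicate 1.

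Control spots and spots marked as outliers were left out, spots of a probe were averaged on the log2 scale, and the 75th percentile over the 56567 probes kept was subtracted from each array. The test took the 31912 probes that were well above background on every array of some group, and none was saturated. A single limma 3.58.1 fit (R 4.3.3, lmFit and eBayes, 4 residual degrees of freedom) held a mean per group. P-values were adjusted by Benjamini-Hochberg over all tested probes. A gene was represented by its most intense probe, and every probe of the 10 genes is reported. Of pathway lists, up to 5 genes with the largest change past the unadjusted rule were named, with the receptor chains, Casp1, Bcl3 and Cxcl1 added after their values were seen, and of marker lists up to 2 with the highest level and, added after their values were seen, Krt8, Cdkn2a and Epx. The members and lists were chosen with earlier results of these data known. The number of arrays, 2 a group, limits the precision.

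The settings tried besides were normexp (offset 50), quantile normalization, other filters on dim probes, the authors' log2 values, a replicate block, a trended and robust spread, the methods' t-test and leaving out each array in turn. Deviations of same-numbered arrays correlated at r from -0.19 to 0.29 between groups, above 0.1 in 4 of 6 pairs of groups and not in every one, so the numbers were not used as pairs. No slide block was run, since all arrays shared 1 slide. Motifs and figures were made with Python 3 (matplotlib). RefSeq sequences and positions are those of GRCm38.p6, probe positions those of mm9 from the scanner files, except that the membrane-form Il1rl1 probe was also found by its letters in a RefSeq window. No coordinate was converted. Results on one further motif and one marker are not reported here.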

Additional observations from a re-analysis of the deposited data

How the results depend on the processing

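The direction of the Il18bp, Il18r1 and Il1rn changes in the combination was the same in all 16 alternatives, and each was called in 13 of them. Many of these could not move the change itself. This holds for other filters, the replicate block, other tests or spreads, and leaving out a single-agent array. Quantile normalization and the authors' log2 values were nearly the same setting. Their log2 changes ranged from 2.27 to 4.59, from 1.82 to 3.63 and from 0.86 to 1.37, and the adjusted p from 0.00447 to 0.253, from 0.00346 to 0.234 and from 0.00418 to 0.206. The count of 3 called genes fell to 0 with the methods' t-test, both at its own threshold and after Benjamini-Hochberg adjustment, and lay between 0 and 3 with 1 array left out, 0 without combination replicate 2, 1 without combination replicate 1 and 2 without vehicle replicate 2. By the unadjusted rule it lay between 2 and 3.

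Single-agent counts moved with 1 or 2 genes. For TP-16, 1 gene was called with normexp and between 0 and 2 with 1 array left out. By the unadjusted rule, the TP-16 count of 2 fell to 1 with quantile normalization, the authors' log2 values, no filter on dim probes and the trended, robust spread, to 0 with the methods' t-test, and lay between 1 and 2 with 1 array left out. For anti-PD-1 the count called lay between 0 and 2 with 1 array left out, and the unadjusted count of 2 fell to 1 with normexp, to 0 with the methods' t-test, and lay between 0 and 2. Each adjusted single-agent call of 2 genes came without vehicle replicate 2.

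The unadjusted count of the combination against TP-16 rose from 0 to 1 with quantile normalization, the authors' log2 values, normexp and the methods' t-test, and lay between 0 and 1 with 1 array left out. Against anti-PD-1 it was 1 with the methods' t-test and lay between 0 and 2, as did the departure from additivity (2 without vehicle replicate 2). The median change of the genes ranged from 0.21 to 0.47 for TP-16, from 0.50 to 0.64 for anti-PD-1 and from 0.38 to 0.72 for the combination with 1 array left out. With quantile normalization the median over all tested probes was 0.04, -0.01 and -0.01 in the 3 comparisons with vehicle, against -0.12, -0.10 and -0.20 in the main scaling.

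With the replicate block, 3 genes were called in the combination, as without it, and the adjusted p was 0.0284 for Il18bp, 0.0294 for Il18r1 and 0.0265 for Il1rn, and the block changed no other call of these genes. Over all tested probes, the combination called 4004 in the main setting, 2570 with normexp, and 0 with the methods' t-test (2255 at its own threshold) and without combination replicate 2. For TP-16 the 17 calls became 498 with normexp, 139 with quantile normalization and 3 with the replicate block, and for anti-PD-1 the 23 calls became 2, 35 and 4. Against TP-16, the combination's 0 calls became 137 with normexp, 215 with the trended, robust spread and 47 with only probes above background on all arrays, and against anti-PD-1 the 5 calls became 424, 430 and 266. The methods' t-test was not run for additivity, nor was a slide block. Il1b, Il1r1, Il1r2 and the soluble-form probe of Il1rl1 changed sign in 1 or 2 alternatives of a comparison without being called in any.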
